A study of Mus musculus with 25 samples.

Results

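Complement components and receptors were followed in 25 mouse melanomas through 9 genes, taken by symbol from the deposited count table. They are C1qa, C1qb, C1qc, C2, C3, C4b, Cfb, C3ar1 and C5ar1, 9 of the 55450 genes in the table. All 9 passed the filter on low counts that left 18031 genes for testing. They were divided into the classical pathway (the 3 C1q genes, C2 and C4b), the alternative pathway (Cfb), the component shared by both (C3) and the receptors of the released peptides (C3ar1 and C5ar1).

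The tumours were grown from B2905, a mouse melanoma cell line also called M4, in C57BL/6 mice, and 1 RNA library was sequenced per tumour. Of 40 implanted mice, 30 received an antibody against CTLA-4, an inhibitory receptor of T cells, and 5 were given an isotype control, IgG2b. Both antibodies were given at 10 mg/kg, 2 times a week for 2 weeks, starting at a mean tumour volume of 75 mm3. The libraries analysed came from 20 of the 30 anti-CTLA-4 tumours, sorted by their size at 10 to 11 days after the last dose into 8 responders that shrank, 6 stable tumours and 6 non-responders that kept growing. The 5 IgG2b tumours served as controls, and the other 10 anti-CTLA-4 tumours and 5 mice left without antibody were not analysed here. All tumours came from 1 cell line, and the labels give each tumour its own mouse number. The comparisons between outcomes ask which complement genes differed between tumours that shrank, held or grew under the same antibody. Those with the controls give the difference from tumours treated with an antibody without that target.

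Complement is a cascade of plasma and tissue proteins that marks surfaces for uptake, attracts leukocytes and can lyse cells. In the classical pathway C1q binds antibody or other ligands, and its proteases C1r and C1s cleave C4 and C2 to form an enzyme that cleaves C3. In the alternative pathway factor B binds to deposited C3b and is cut by factor D into a second enzyme of the same specificity. The small fragments C3a and C5a act on the receptors C3aR and C5aR1. Liver makes most plasma complement, and in tumours macrophages are a known source of C1q.

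Total counts ranged from 8.76 to 34.3 M per tumour. Protein-coding genes took 82.9 to 89.2% of counts in every control, non-responder and stable tumour, and 23.8 to 87% in responders. Melanocyte markers summed to 9760 to 16200 CPM (counts per M, after scaling of the library) in controls and 376 to 13100 CPM in non-responders, but to 10.4 to 163 CPM in stable tumours and 17.6 to 409 CPM in responders, so the defining markers of the implanted line were low in these last groups. The hepatocyte markers Alb, Apoa1, Ttr and Serpina1a together reached at most 4.36 CPM in any tumour. In bulk tissue, more cells of a type and more RNA per cell cannot be told apart, and this holds for every difference below.

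Compared with controls, complement genes were higher in all 3 outcome groups, with the largest differences in stable tumours. All 9 genes rose in stable tumours (edgeR quasi-likelihood test, adjusted p from 4.36e-06 to 0.00846), in a comparison in which 22.2% of all tested genes were called higher. In responders 8 of the 9 rose, all but C4b, where 36.1% of tested genes were called higher. In non-responders 7 of the 9 rose, all but C4b and C5ar1, where 10.6% of tested genes were called higher. The median log2 fold change of the 9 genes was 2.09 in stable tumours, 1.22 in responders and 1.26 in non-responders, against 0.02, 0.16 and 0.04 over all tested genes. These comparisons share the control tumours. The count in non-responders rested on few tumours, since 3 to 4 of the 9 were called without non-responder 4 or 6 or control 1 or 4.

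Among the outcome groups, stable tumours had the highest median of each of the 9 genes. In stable tumours against non-responders, C3 and C5ar1 rose, where 7.08% of tested genes were called higher, and the median of the 9 genes was 0.87 against -0.02 over all genes. In responders against stable tumours, 6 genes fell, namely C1qa, C1qb, C1qc, C2, C4b and C3ar1, where 17.8% of tested genes were called lower, and the median was -0.88 against 0.01. In responders against non-responders, C5ar1 alone passed the threshold, where 48.9% of tested genes were called in either direction, and the median of 0.05 equalled that of all genes. Leaving out 1 tumour at a time moved these small counts: 0 to 1 genes were called in stable tumours against non-responders without stable tumour 3 or non-responder 1, 2, 3 or 5, and 6 and 8 without non-responders 4 and 6. In responders against non-responders, 0 were called without responder 2 or non-responder 1 or 2, and 2 without responder 5 or non-responder 6.

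The comparisons with responders came with a difference in library composition. When each library's protein-coding share entered the model as a covariate, 0 of the 9 genes were called in responders against stable tumours, and 0 of all 18031 tested genes were (edgeR, with 1 of the 9 and 2296 of all genes at an unadjusted p under 0.05). The log2 differences of the 6 genes in that model were -0.71 for C4b (-0.8 without the covariate), -0.54 for C1qa and C1qb, -0.53 for C2, -0.5 for C1qc and -0.19 for C3ar1 (adjusted p from 0.386 to 0.802, edgeR). The same model called 6 of the 9 higher in stable tumours when set against non-responders, and 8 and 9 higher in responders and in stable tumours than in controls. In responders against non-responders it called 1810 of all tested genes (5.08% higher and 4.96% lower), in place of 8823 without the covariate. Values below for genes outside the 9 come from the model without this covariate. Without the 2 responders under 60% protein-coding, a setting chosen after seeing the data, C4b was called lower in responders than in stable tumours and 8.01% of all genes were. The other 5 were then at -0.77 for C1qa, -0.75 for C1qb, -0.76 for C1qc, -0.99 for C2 and -0.53 for C3ar1 (adjusted p from 0.0653 to 0.17, edgeR).

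**Figure D1:**
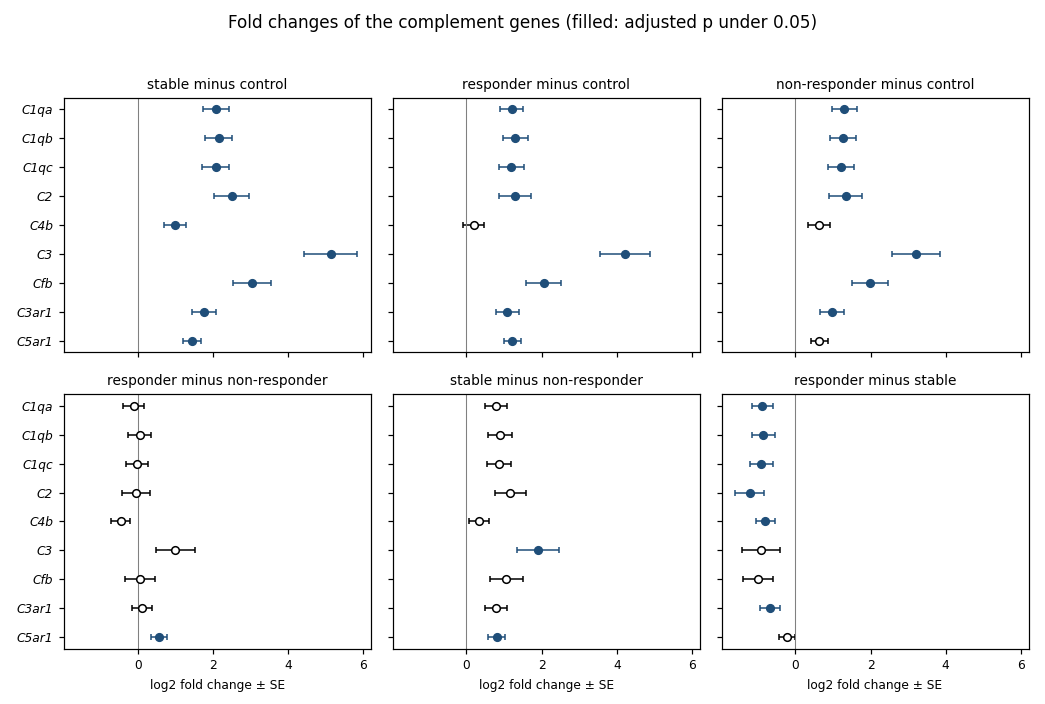
Log2 fold change ± SE of each of the 9 complement genes in the 6 comparisons (x axis, log2 fold change, edgeR), with filled points where the adjusted p was under 0.05. All 9 points are filled in stable tumours against controls, 8 in responders against controls and 7 in non-responders against controls, while 1 is filled in responders against non-responders.

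The 3 C1q genes encode the A, B and C chains of 1 protein, the recognition unit of the classical pathway. They lie side by side on chromosome 4 on the minus strand (GRCm38, GENCODE annotation), C1qb (ENSMUSG00000036905.8) at chr4:136880129-136886187, C1qc (ENSMUSG00000036896.5) at chr4:136889804-136893065 and C1qa (ENSMUSG00000036887.5) at chr4:136895917-136898803. RefSeq promoter windows matched 5 of the 9 genes, C1qb, C1qc, C3, C3ar1 and C5ar1. Those of C1qb and C1qc are shown because the chains moved together, at chr4:136886201-136886450 and chr4:136893066-136893164 (GRCm38.p6, minus strand, 5′ to 3′, bases upstream of the RefSeq start that lie outside annotated exons). Capitals mark the 1 match to the letters GAGGAAGT, a form of the motif of the myeloid factor PU.1, which lies on the opposite strand.
C1qb: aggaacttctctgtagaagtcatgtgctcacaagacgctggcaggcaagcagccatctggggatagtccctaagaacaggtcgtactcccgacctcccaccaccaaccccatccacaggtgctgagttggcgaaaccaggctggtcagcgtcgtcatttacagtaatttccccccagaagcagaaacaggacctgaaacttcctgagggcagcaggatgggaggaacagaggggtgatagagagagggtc
C1qc: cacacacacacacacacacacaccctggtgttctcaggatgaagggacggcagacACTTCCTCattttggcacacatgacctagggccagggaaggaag
Both strands of the 250 bases upstream of the 5 starts were also searched for TTCNNNGAA, the gamma interferon-activated site, and for GAAA, any 2 bases and GAAA, a form of the interferon-stimulated response element, and neither pattern occurred. Of 32851 RefSeq windows of 250 bases, 2.44% held GAGGAAGT, 7.02% held TTCNNNGAA and 2.98% held the response element, counting both strands. A match is a description of letters and no sign of binding.

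C1qa stood at 116, 112, 113, 99.8 and 186 CPM in the 5 controls. In non-responders it ranged from 143 to 556 CPM with a median of 261, in stable tumours from 454 to 660 CPM with a median of 527, and in responders from 194 to 602 CPM with a median of 230. Every stable tumour and every responder was above every control, 4 of the 6 non-responders were, and 7 of the 8 responders were below every stable tumour. The log2 fold change from controls was 2.09 ± 0.34 (SE) in stable tumours (adjusted p = 2.55e-05), 1.2 ± 0.31 in responders (adjusted p = 0.00176) and 1.3 ± 0.33 in non-responders (adjusted p = 0.00862, edgeR). Responders fell below stable tumours by 0.88 ± 0.28 on the log2 scale (adjusted p = 0.0177), and their difference from non-responders did not pass the test (-0.1 ± 0.28, adjusted p = 0.778, edgeR).

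C1qb was at 95.7, 94.9, 105, 87.1 and 163 CPM in controls, and its median was 209 CPM among non-responders, 477 among stable tumours and 212 among responders. C1qc was at 91.6, 84.1, 95.8, 81.7 and 141 CPM in controls, with medians of 188, 408 and 172 CPM in the same order. The same tumours stood out for all 3 chains: control 5 was the highest control, non-responders 6 and 4 the highest non-responders, and responder 5 the highest responder, at 602, 605 and 495 CPM for C1qa, C1qb and C1qc. Responder 5 was also the 1 responder whose protein-coding share, 87%, lay within the range of the other groups. In stable tumours the log2 fold change over controls was 2.16 ± 0.36 for C1qb (adjusted p = 3.59e-05) and 2.08 ± 0.36 for C1qc (adjusted p = 4.89e-05, edgeR). Responders fell below stable tumours by 0.85 ± 0.3 for C1qb (adjusted p = 0.0279) and by 0.9 ± 0.3 for C1qc (adjusted p = 0.0219, edgeR). The C1qb call was lost without any 1 of responders 4, 6, 7 or 8 or stable tumours 2, 3 or 4 (adjusted p from 0.0514 to 0.0568). The rises of C1qb and C1qc in non-responders over controls, 1.26 ± 0.35 and 1.21 ± 0.34 (adjusted p = 0.0161 and 0.0197), were both lost without non-responder 6 or control 4, and that of C1qc also without non-responder 4 or control 1 (adjusted p from 0.0536 to 0.067, edgeR).

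Per length, the chains were near equal, in a narrow range of proportions. The deposited RPKM (reads scaled per kilobase of gene length and per M reads) of C1qb was 0.876 ± 0.0686 of that of C1qa and that of C1qc 0.816 ± 0.0551 (SD, n = 25). Over the 25 tumours the Pearson correlation of log2 CPM between chains was 0.993 to 0.994, and 0.985 to 0.987 after the group means were taken out. With mean RPKM of 210, 185 and 172, C1qa, C1qb and C1qc ranked 156, 176 and 197 among 19518 gene symbols by mean RPKM.

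C2, the protease subunit of the classical C3 convertase, and C4b, which encodes the C4 that C1s cleaves, lie in the major histocompatibility complex on chromosome 17. C2 (ENSMUSG00000024371.14, chr17:34862604-34898265) was at 14.6, 10.6, 14.2, 23.2 and 20.5 CPM in controls. It ranged from 19.1 to 84.2 CPM in non-responders (median 36.9), from 56.7 to 147 CPM in stable tumours (median 89) and from 17.2 to 101 CPM in responders (median 29.6). Stable tumours did not overlap controls, 6 of 8 responders and 4 of 6 non-responders were above every control, and 6 of 8 responders were below every stable tumour. C2 rose by 2.5 ± 0.46 on the log2 scale in stable tumours over controls (adjusted p = 0.000111) and fell by 1.21 ± 0.38 in responders against stable tumours (adjusted p = 0.0162, edgeR). Its rise in non-responders, 1.34 ± 0.44 (adjusted p = 0.0435), was lost when any 1 of 3 non-responders (1, 4 or 6) or any 1 of the 5 controls was left out, with adjusted p from 0.0577 to 0.133 (edgeR). The gene Zbtb12 overlaps C2 on the opposite strand and held counts equal to 11.1% of those of C2, and whether counting used strand is not given in the sources used here.

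C4b (ENSMUSG00000073418.4, chr17:34728380-34743882) varied least of the 9 genes, with 3.85-fold between its highest and lowest tumour in CPM. It was at 403, 583, 550, 595 and 579 CPM in controls, 827 to 1340 CPM in stable tumours (median 1080) and 401 to 1010 CPM in responders (median 601). The 6 non-responders were at 1130, 400, 367, 1220, 549 and 1410 CPM, 3 above every control and 2 below every control. C4b rose in stable tumours over controls (0.99 ± 0.29, adjusted p = 0.00846) and fell by 0.8 ± 0.25 in responders against stable tumours (adjusted p = 0.0184, edgeR). In responders against controls its log2 fold change was 0.19 ± 0.27 (adjusted p = 0.55), and in non-responders against controls 0.64 ± 0.29 (adjusted p = 0.146, edgeR). Reads of C4b and its close copy C4a could not be placed with certainty: C4a took 0.0288 to 0.594% of the counts of the pair, while in the RPKM table it stood at 0.338 to 0.369 of C4b in every tumour.

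**Figure D2:**
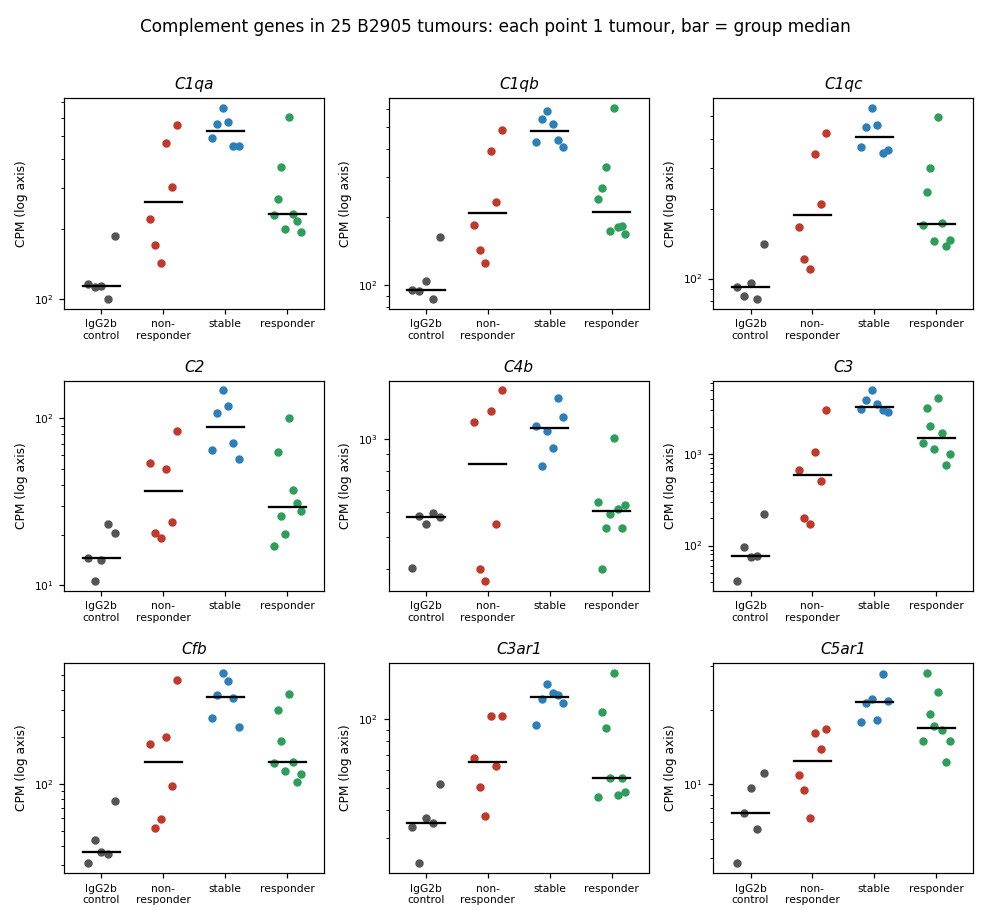
Level of each of the 9 complement genes in every tumour (y axis, CPM of the scaled library, log axis) by group, with a bar at the group median. Stable tumours lie above every control in all 9 panels, C3 spans the widest range, and responder 5 is the highest responder for 8 of the 9 genes.

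C3, cleaved by the convertases of both pathways and the source of C3a and C3b, had the widest range of the 9 genes, 122-fold in CPM and 4.72 to 558 in RPKM. It lies at chr17:57203970-57228136 on the minus strand (ENSMUSG00000024164.15). Its promoter window is shown because of this range, at chr17:57228137-57228386 (RefSeq, GRCm38.p6, minus strand, 5′ to 3′). It held none of the letters searched for and so has no capitals.
C3: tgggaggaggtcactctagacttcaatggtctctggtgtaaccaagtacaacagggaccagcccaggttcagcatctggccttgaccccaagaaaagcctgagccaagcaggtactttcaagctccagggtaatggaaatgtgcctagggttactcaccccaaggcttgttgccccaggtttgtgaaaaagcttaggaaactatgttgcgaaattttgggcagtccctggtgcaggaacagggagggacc
C3 was at 40.7, 96.5, 74.5, 76.9 and 222 CPM in controls. It was at 672, 202, 173, 1060, 503 and 3070 CPM in the 6 non-responders, 2880 to 4990 CPM in stable tumours (median 3300) and 761 to 4070 CPM in responders (median 1510). Every stable tumour and responder was above every control, while non-responders 2 and 3 lay within the control range and non-responder 6 within the stable range. C3 was 34.9-fold higher in stable tumours than in controls (log2 5.13 ± 0.7, adjusted p = 4.36e-06), 18.6-fold in responders (4.22 ± 0.66, adjusted p = 9.66e-06) and 9.28-fold in non-responders (3.21 ± 0.64, adjusted p = 0.00153, edgeR). Without non-responder 6 the log2 difference of non-responders and controls was 2.36.

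Between the outcome groups the C3 differences were smaller. Stable tumours exceeded non-responders by 1.91 ± 0.56 on the log2 scale (adjusted p = 0.0252), and this call was lost when stable tumour 3 or non-responder 1, 2, 3 or 5 was left out (adjusted p from 0.051 to 0.0595, edgeR). The difference was 2.77 without non-responder 6. Responders against non-responders gave 1 ± 0.52 (adjusted p = 0.112), and 1.86 without non-responder 6, which then passed (adjusted p = 0.0035, edgeR). On the deposited RPKM the same difference was 1.52 on the log2(RPKM + 1) scale (adjusted p = 0.0106, limma). It was not called in any alternative on counts that kept all tumours, nor on leaving out any other 1 tumour. Responders against stable tumours gave -0.91 ± 0.51 (adjusted p = 0.155, edgeR).

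Cfb encodes factor B, the alternative pathway protease and the homologue of C2. Its annotated end at chr17:34856374-34862518 (ENSMUSG00000090231.10) is 85 bases from that of C2 on the same strand. Cfb was at 30.7, 43.3, 36.2, 35.2 and 77.6 CPM in controls, 52.1 to 468 CPM in non-responders (median 138), 233 to 519 CPM in stable tumours (median 363) and 102 to 377 CPM in responders (median 137). All stable tumours and responders and 4 of 6 non-responders were above every control. Cfb was 8.24-fold higher than controls in stable tumours (log2 3.04 ± 0.5, adjusted p = 3.32e-05), 4.14-fold in responders (2.05 ± 0.46, adjusted p = 0.000519) and 3.95-fold in non-responders (1.98 ± 0.48, adjusted p = 0.00671, edgeR). Responders lay 0.99 ± 0.4 below stable tumours on the log2 scale, with an adjusted p of 0.0528 in edgeR and 0.0384 in DESeq2. Across the 25 tumours the Pearson r of log2 CPM was 0.962 between Cfb and C3 and 0.917 between Cfb and C2, given as descriptions of tumours that fall into 4 groups.

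C3ar1 and C5ar1 encode receptors found mostly on myeloid cells. C3ar1 (ENSMUSG00000040552.8, chr6:122847138-122856161) was at 33.5, 23.2, 36.7, 35.1 and 51.9 CPM in controls. It ranged from 37.7 to 104 CPM in non-responders (median 65.1), 94.9 to 144 CPM in stable tumours (median 125) and 45.5 to 161 CPM in responders (median 55.1). Stable tumours did not overlap controls, and 5 of 8 responders and 4 of 6 non-responders were above every control. C3ar1 rose by 1.77 ± 0.32 in stable tumours over controls (adjusted p = 9.62e-05) and fell by 0.68 ± 0.27 in responders against stable tumours (adjusted p = 0.0498, edgeR). That last call was lost without any 1 of responders 1, 4, 6, 7 or 8 or stable tumours 2 to 6 (adjusted p from 0.0641 to 0.0969), and the rise in non-responders over controls, 0.98 ± 0.31 (adjusted p = 0.0378), was lost without any 1 of non-responders 4, 5 or 6 or controls 1 to 4 (adjusted p from 0.0545 to 0.105, edgeR).

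C5ar1 (ENSMUSG00000049130.6, chr7:16246743-16259540) was the lowest of the 9 genes per length, with a mean RPKM of 5.3, and the 1 gene called in responders against non-responders. It was at 4.77, 7.63, 9.66, 6.6 and 11.1 CPM in controls and 7.26 to 16.7 CPM in non-responders (median 12.4). Stable tumours were at 17.8 to 27.9 CPM (median 21.6), with no overlap with non-responders, and responders at 12.3 to 28.3 CPM (median 16.9), with 4 of 8 above every non-responder. C5ar1 rose by 1.44 ± 0.24 in stable tumours and by 1.22 ± 0.23 in responders over controls (adjusted p = 3.39e-05 and 7.16e-05, edgeR). Responders exceeded non-responders by 0.57 ± 0.21 (adjusted p = 0.0262), a call lost without responder 2 or non-responder 1, 2 or 3 (adjusted p from 0.0509 to 0.0745), and stable tumours exceeded non-responders by 0.8 ± 0.22 (adjusted p = 0.0176), lost without non-responder 2 or 3 (adjusted p of 0.0516 and 0.0507, edgeR). Responders and stable tumours differed by -0.22 ± 0.2 (adjusted p = 0.395, edgeR). Per length, C3ar1 was above C5ar1 in every tumour, with a ratio of RPKM of 2.87 ± 0.907 in controls (SD, n = 5), 3.36 ± 0.389 in non-responders (SD, n = 6), 3.44 ± 0.579 in stable tumours (SD, n = 6) and 2.34 ± 0.822 in responders (SD, n = 8).

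The classical genes were set against the alternative one within each tumour, as the mean log2 CPM of C1qa, C1qb, C1qc, C2 and C4b minus the log2 CPM of Cfb. CPM is not per length, so the sign of this difference has no reading of its own and only its change between groups is described. The difference was 1.27 ± 0.316 in controls (SD, n = 5, range 0.84 to 1.56) and 0.62 ± 0.49 in non-responders (SD, n = 6, -0.15 to 1.19). It was 0.17 ± 0.25 in stable tumours (SD, n = 6, -0.09 to 0.53) and 0.228 ± 0.317 in responders (SD, n = 8, -0.49 to 0.61). All 8 responders, all 6 stable tumours and 3 of 6 non-responders were below every control. C1qa, C1qb, C1qc, C2 and Cfb rose over controls in each outcome group, with a log2 fold change of Cfb above that of each of the other 4. The balance rests on 1 alternative pathway gene and leaves out C1ra and C1s1, which encode the classical proteases C1r and C1s. Against controls C1ra and C1s1 rose by 3.31 and 3.31 in stable tumours, 2.19 and 2.22 in responders and 2.09 and 2.1 in non-responders. Cfb rose by 3.04, 2.05 and 1.98 in the same order. The alternative pathway gene Cfp rose by 1.65, 0.83 and 1.13, and Cfd was called in no comparison. Stable tumours and responders overlapped in this balance. With C2 and C4b alone on the classical side the means were 1.14, 0.31, -0.2 and -0.21 in controls, non-responders, stable tumours and responders.

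The homologous proteases gave a smaller difference. Cfb made up 72.5 ± 7.82% of the summed RPKM of Cfb and C2 in controls (SD, n = 5), 78 ± 4.34% in non-responders (SD, n = 6), 79.4 ± 2.08% in stable tumours (SD, n = 6) and 81.7 ± 4.73% in responders (SD, n = 8). Controls ranged from 61.2 to 80.2%, and 1 non-responder, 1 stable tumour and 4 responders were above all of them. The ratio of C3 to C4b, the homologous substrates, separated the groups further, at 0.191 ± 0.12 in RPKM in controls (SD, n = 5), 0.959 ± 0.658 in non-responders (SD, n = 6), 3.63 ± 1.18 in stable tumours (SD, n = 6) and 3.35 ± 2.28 in responders (SD, n = 8). C3 is shared by both pathways, so this ratio does not set one pathway against the other. Every treated tumour was above every control in this ratio, and every stable tumour was above every non-responder. C4b thus exceeded C3 per length in all controls, and C3 exceeded C4b in all stable tumours and responders. These balances and this ratio are descriptions with no test, since the genes were chosen with earlier results of these data known.

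**Figure D3:**
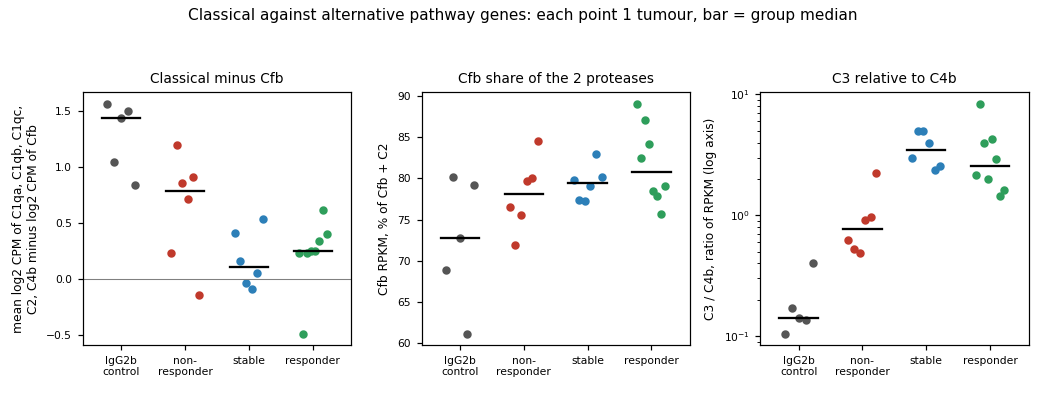
Complement genes set against each other in each tumour by group, with a bar at the median: mean log2 CPM of 5 classical genes minus that of Cfb (left), Cfb as a percent of the summed RPKM of Cfb and C2 (middle) and the ratio of C3 to C4b RPKM (right, log axis). C3 is shared by both pathways, so the right panel is not a balance of pathways. Controls range from 0.84 to 1.56 on the left, above every stable tumour and responder, and from 0.105 to 0.402 on the right, below every other tumour.

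Markers of several cell types differed between the groups, in either direction. The summed level of 8 macrophage markers ranged from 370 to 594 CPM in controls, from 483 to 1220 in the non-responders, 1140 to 1830 in stable tumours and 596 to 1590 in responders. Of the 8 markers, 7 were called higher in stable tumours, 6 in responders and 4 in non-responders than in controls. Over all tested genes, 22.2, 36.1 and 10.6% were. In responders against stable tumours 4 markers were called lower and 1 higher, beside 17.8 and 20.5% of all tested genes. Neutrophil markers summed to 5.42 to 12 CPM in the controls, 9.24 to 40.5 among non-responders, 38.2 to 68.3 in stable tumours and 33.7 to 92.1 in responders, with 4 of 6 markers under 1 CPM in every control. In stable tumours and responders, Csf3r averaged 31.8 and 33.6 CPM and Mmp9 averaged 9.59 and 9.36 CPM. The other 4 neutrophil markers had group means of 0.677 to 3.84 CPM there. Fibroblast markers summed to 3370 to 6330 CPM in the controls, 6010 to 13800 among non-responders, 7590 to 15500 in stable tumours and 7090 to 16100 in responders. T cell markers summed to 3.01 to 11.7, 9.2 to 87, 59.6 to 92.1 and 34.6 to 105 CPM in the same order. Endothelial markers summed to 115 to 167, 124 to 247, 71.1 to 124 and 37.3 to 91.7 CPM, and mast cell markers to 36.9 to 102, 64.4 to 137, 21.7 to 71 and 8.03 to 46.4 CPM, again in that order. Of 4 endothelial and 4 mast cell markers, all were called lower in responders than in non-responders (23.8% of all tested genes were). In responders against stable tumours, 3 and 2 were called lower (17.8% of all tested genes were). The part of these cell types in the complement differences was not tested.

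Each gene was also set beside the macrophage markers, as its log2 CPM minus their mean log2 CPM in the same tumour. CPM is not per length, so a value near 0 has no reading of its own and only changes between groups are described. C3ar1 changed little between groups, at -0.0499 ± 0.367 in controls (SD, n = 5), 0.0393 ± 0.201 in non-responders (SD, n = 6), 0.0275 ± 0.129 in stable tumours (SD, n = 6) and -0.0296 ± 0.267 in responders (SD, n = 8). C1qa had means of 1.76, 2.08, 2.14 and 1.93 in the same order, and C2 of -1.17, -0.85, -0.435 and -1.04. C3 had means of 1.27, 3.16, 4.87 and 4.54 and Cfb of 0.216, 1.01, 1.56 and 1.24, with the lowest value of both in controls. C4b had its highest mean in controls, with 3.89, 3.5, 3.14 and 3.09. No test was made of these differences. C5ar1 was highest relative to the markers in responders, at -1.97 ± 0.313 (SD, n = 8), against -2.23, -2.44 and -2.49 in controls, non-responders and stable tumours.

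**Figure D4:**
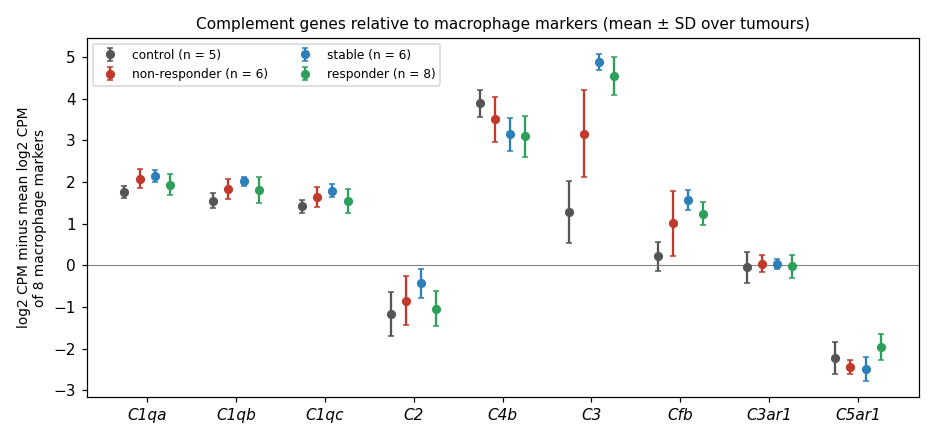
Level of each complement gene relative to macrophage markers in the same tumour (y axis, log2 CPM minus the mean log2 CPM of 8 markers; points and bars, mean ± SD) for the 4 groups. C3ar1 has similar means in all groups, C3 has means of 1.27 in controls and 4.87 in stable tumours, and C4b has means of 3.89 in controls and 3.09 in responders.

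The genes whose log2 CPM was most like that of a complement gene across the 25 tumours were picked from 13390 genes by Pearson r. The nearest to C1qa were Dse, the immunoproteasome gene Psmb8 and Cd52 (r from 0.965 to 0.968). The nearest to C3 were Itgb2, a subunit of the receptors CR3 and CR4, the selectin ligand gene Selplg and Cd74, the class II invariant chain (0.987 to 0.989), and to Cfb the class I genes H2-D1 and H2-K1 and the transglutaminase gene Tgm2 (0.978 to 0.981). C5ar1 was nearest to Bgn, Mmp19 and Gpr35 (0.939 to 0.947). C4b had weaker neighbours, Olfr56, Ube2l6 and Coro2a (0.841 to 0.851), and its lowest correlation among the 9 genes was 0.541, with C5ar1. The tumours share 4 groups and their libraries, so these values describe likeness only.

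Interferon gamma is known to induce C2, C4b and Cfb, and a list of 20 interferon-induced genes was counted beside them. All 20 were called higher in each outcome group than in controls, with a median log2 fold change of 2.74 in stable tumours, 2.13 in responders and 1.94 in non-responders. The shares of all tested genes called higher were 22.2, 36.1 and 10.6% in the same order. Between outcomes, 6 were called higher in stable tumours against non-responders (7.08% of all tested genes were), 8 lower in responders against stable tumours (17.8% of all) and 4 higher in responders against non-responders (25.2% of all). Their part in the complement differences was not tested.

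Other genes of the cascade were read from a list of 44, of which 28 were tested. Against controls, stable tumours had 15 of the 28 called higher and 0 lower, responders 16 higher and 2 lower, and non-responders 11 higher and 0 lower. Against non-responders, stable tumours had 6 called higher and 0 lower and responders 3 higher and 5 lower, and against stable tumours responders had 1 called higher and 9 lower. Over all tested genes, the shares called higher and lower were 22.2 and 19.6% in stable tumours, 36.1 and 28.9% in responders and 10.6 and 3.29% in non-responders against controls. They were 7.08 and 7.86% in stable tumours and 25.2 and 23.8% in responders against non-responders, and 20.5 and 17.8% in responders against stable tumours. For responders against non-responders, the 8 of 28 calls are a smaller share than the 48.9% of all genes. The median log2 fold changes against controls were 1.37, 0.92 and 0.96, and 0.56 (stable tumours against non-responders), -0.06 (responders against non-responders) and -0.73 (responders against stable tumours) between outcomes.

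The proteases that C1q carries, encoded by C1ra and C1s1, rose in each outcome group over controls. C1s1 averaged 47 ± 7.77 CPM in controls (SD, n = 5), 201 ± 141 in non-responders (SD, n = 6), 467 ± 99.2 in stable tumours (SD, n = 6) and 218 ± 133 in responders (SD, n = 8), and rose by 3.31 ± 0.44 in stable tumours over controls (adjusted p = 2.9e-06, edgeR). C1ra averaged 32.3, 137, 320 and 147 CPM in the same order. Serping1, the inhibitor of C1r and C1s, averaged 46.5, 192, 444 and 189 CPM and rose by 3.26 ± 0.5 in stable tumours over controls (adjusted p = 1.52e-05, edgeR). All 3 were also called lower in responders than in stable tumours (adjusted p from 0.017 to 0.025, edgeR). The lectin pathway genes Mbl1 and Mbl2 were not tested, with at most 0.0416 CPM for Mbl1 in any tumour and 0 counts for Mbl2 in all. Fcna, which encodes ficolin A of the same pathway, averaged 11, 8.5, 8.46 and 1.8 CPM, and in responders it fell by 2.53 ± 0.63 below controls, 2.16 ± 0.6 below non-responders and 2.16 ± 0.6 below stable tumours (adjusted p from 0.0012 to 0.00991, edgeR). Other tested genes listed with it went otherwise. Colec12 rose over controls by 1.95 ± 0.36 in stable tumours, 0.92 ± 0.34 in responders and 1.41 ± 0.36 in non-responders (adjusted p from 0.000139 to 0.0197, edgeR). It fell by 1.03 ± 0.31 in responders against stable tumours (adjusted p = 0.0134, edgeR). Masp1 and Colec11 were called in no comparison.

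Of the other alternative pathway genes, Cfp, which encodes the stabiliser properdin, rose by 1.65 ± 0.31 in stable tumours (adjusted p = 0.000169), by 0.83 ± 0.29 in responders (adjusted p = 0.0156) and by 1.13 ± 0.31 in non-responders over controls (adjusted p = 0.0152, edgeR). Cfd, the gene of factor D, had means of 13.9 CPM in controls, 23.9 among non-responders, 29.4 among stable tumours and 11.9 among responders, and was called in none of the 6 comparisons (adjusted p from 0.0751 to 0.79, edgeR).

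Downstream of C3, Hc, which encodes C5, had means of 7.48 CPM in controls, 35.2 among non-responders, 54.5 among stable tumours and 31.4 among responders, and rose over controls in non-responders, stable tumours and responders (2.24, 2.86 and 2.08 on the log2 scale, adjusted p from 1.6e-05 to 0.00118, edgeR). Of the genes of the membrane attack complex, C6 averaged 3.02, 4.69, 7.86 and 1.71 CPM and in responders fell by 1.39 ± 0.54 below non-responders (adjusted p = 0.0375) and by 2.13 ± 0.55 below stable tumours (adjusted p = 0.00635, edgeR). C7 averaged 0.109, 0.263, 0.946 and 0.576 CPM, rose over controls in stable tumours and responders (3.09 ± 0.53 and 2.39 ± 0.52, adjusted p = 5.41e-05 and 0.000339), and rose over non-responders in stable tumours (1.86 ± 0.46, adjusted p = 0.0105) and responders (1.16 ± 0.45, adjusted p = 0.0367, edgeR). Its counts per tumour were 1 to 5, 2 to 10, 7 to 35 and 2 to 19 in the 4 groups, so these changes lie near the floor. C8g was tested and called in no comparison (adjusted p from 0.152 to 0.79, edgeR). C8a and C9 were not tested, with at most 0.0904 and 0.223 CPM in any tumour. Among the membrane inhibitors, Cd55 rose in each outcome group over controls (adjusted p from 0.00065 to 0.0326), while Cr1l averaged 63.8, 60.2, 63 and 56.2 CPM and was called in no comparison (adjusted p from 0.261 to 0.936, edgeR). Itgam, a subunit of the receptor CR3, averaged 44.9, 106, 257 and 168 CPM and rose in stable tumours over non-responders (1.28 ± 0.33, adjusted p = 0.0118, edgeR). Vsig4, the macrophage receptor for C3b, was not tested, with at most 0.621 CPM in any tumour.

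**Figure D5:**
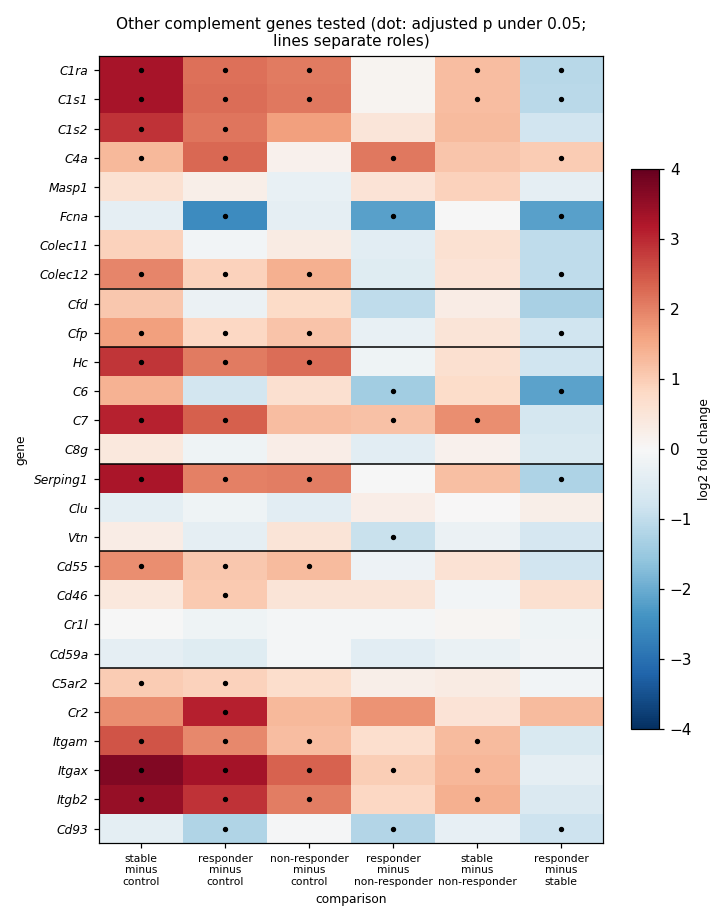
Log2 fold change of 27 of the 28 tested genes of the complement list outside the 9 genes above (one line per gene, grouped by role) in the 6 comparisons (columns; colour, log2 fold change), with a dot where the adjusted p was under 0.05. In stable tumours against controls 14 genes carry a dot, all higher, and in responders against stable tumours 8 of the 9 genes with a dot are lower. The other is C4a, whose reads could not be told with certainty from those of C4b.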

How the data were processed

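RNA from 25 tumours was measured. The labels' protocols name a stranded total RNA kit and the labels give polyA RNA as the molecule, a difference not resolved here. The submitters' processing notes list bcl2fastq 2.17, Trimmomatic, STAR 2.5.1, RSEM 1.2.22 and the build mm10, with no role or order. The labels' sample descriptions open with a number that follows the groups, and what it stands for is not stated. If it is an order of processing, group and order cannot be told apart.

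The authors deposited expected counts (estimated counts per gene, not normalized), of which 5.64% were not whole and which were rounded here. All 55450 gene identifiers were found in the GENCODE M21 annotation of GRCm38. The authors also deposited RPKM values for 19522 symbols (19518 unique), and the sources used here state neither its gene lengths nor its denominator. The values were used for levels per length and, in an alternative, tested with limma 3.58.1.

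Counts were filtered with filterByExpr by group, scaled with TMM and tested with edgeR 4.0.16 in R 4.3.3, by robust quasi-likelihood F tests on all 25 tumours with 4 group means and 6 contrasts, two-sided, with Benjamini-Hochberg adjustment over 18031 genes. A gene is called, and said to have risen or fallen, where its adjusted p was under 0.05. The steps were also run on simulated counts without the responders' spread in protein-coding share, so that run does not bear on this difference in composition. Log2 CPM used a prior count of 2. Total counts limit the precision of low genes such as C5ar1, whose counts ranged from 67 to 582 per tumour.

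The members, the lists and the tests were chosen with earlier results of these data known. Named were the 9 members, 11 other complement genes, of which 1 is not reported here and counts only in the totals of its list, and, for 5 members, the 3 genes of at least 1 CPM with the highest Pearson r, without predicted genes, pseudogenes and receptor segments. Mbl1, Mbl2, Fcna, Colec11, Colec12, Masp1, C4a, C6, C7, C8a, C8g, C9, Csf3r and Mmp9 were named after their values were seen. Alternatives comprised RLE size factors, DESeq2 1.42.0, no filter, a stricter filter (a mean count of 50, with 1 CPM reached in 8 tumours), a required 1.2-fold change, the protein-coding share as a covariate, protein-coding genes only, only the groups compared, limma on log2(RPKM + 1) with and without a minimum mean RPKM of 0.5 and on log2(RPKM + 0.1), and leaving out each tumour. For the balance of pathways they were log2(RPKM + 1), a prior count of 0.5 and a classical side of C2 and C4b.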

Additional observations from a re-analysis of the deposited data

Results flagged for a closer look

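In 12 of 44 sets of values (each gene or balance within a group), the highest or lowest tumour stood apart from the others by Dixon's criterion. Normally distributed values meet it in about 1 in 20 sets. The genes were taken in CPM without logs, where high values stand apart more easily, so the 12 are not read as an excess over that rate. Control 5 was high for C1qa (186 CPM, the next 116), C1qb (163, the next 105), C1qc (141, the next 95.8) and Cfb (77.6, the next 43.3), and control 1 was low for C4b (403 CPM, the next 550). Responder 5 was high for C1qa (602 CPM, the next 367), C1qb (605, the next 334), C1qc (495, the next 298) and C4b (1010, the next 640). Non-responder 6 was high for C3 (3070 CPM, the next 1060) and Cfb (468, the next 201). Responder 2 was low in the log2 difference of classical genes and Cfb (-0.49, the next 0.23). The sets share tumours and several of the genes move together, so the 12 are not independent.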

How the results depend on the processing

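RLE size factors changed no call among the 54 combinations of gene and comparison. The counts of the 9 genes called moved as follows. In responders against non-responders (1), the count was 0 with no filter and with a required 1.2-fold change, and 2 in each of the 3 limma fits. In stable tumours against non-responders (2), it was 1 with no filter and with the required 1.2-fold change, 6 with the stricter filter, with the covariate and in DESeq2, 8 in limma on log2(RPKM + 1) and log2(RPKM + 0.1) and 7 without a filter. In responders against stable tumours (6), it was 2 with the required 1.2-fold change, 0 with the covariate (protein-coding share) and 1 without the 2 responders under 60% protein-coding. In non-responders against controls (7), it was 4 with no filter and 3 when only the groups compared were fitted. Leaving out 1 tumour at a time gave 0 to 2, 0 to 8, 4 to 7 and 3 to 9 in these comparisons, and 8 in responders and 9 in stable tumours against controls throughout. The cause of these moves was not tested. With protein-coding genes only, the median log2 fold change of all tested genes in responders against controls was 0.04 in place of 0.16, and 8 of the 9 genes were called.

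The balance of classical genes and Cfb was 1.83, 1.27, 0.85 and 0.91 on log2(RPKM + 1) in controls, non-responders, stable tumours and responders. With C2 and C4b alone it was -0.2 in stable tumours and -0.21 in responders, and with tumours left out it spanned 1.2 to 1.38, 0.51 to 0.78, 0.1 to 0.22 and 0.17 to 0.33.

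Signs changed only among uncalled differences of responders and non-responders. C1qb became -0.02 with no filter, C1qc 0.05 and C2 0.03 with the stricter filter, C1qa 0.23, C1qc 0.36 and C2 0.61 with the covariate, and C1qc 0.02 with protein-coding genes only. In the limma fits C1qa was 0.02, C1qc 0.09 and C2 0.03, and without the 2 responders under 60% protein-coding 0.01, 0.12 and 0.19. With tumours left out, the ranges were -0.35 to 0.15 for C1qa, -0.24 to 0.32 for C1qb, -0.29 to 0.25 for C1qc, -0.39 to 0.28 for C2, -0.17 to 0.65 for Cfb and -0.14 to 0.25 for C3ar1.

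No paired analysis was possible because the replicate numbers follow the order of the records and pair no tumours.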
